A study of Ictidomys tridecemlineatus with 15 samples.

Results

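The liver of the 13-lined ground squirrel, a hibernating rodent, transcribed 101 zinc finger genes of the ZNF and ZFP nomenclature as units of their own. They were chosen by name alone, as every unit with a single gene name that starts with Znf or Zfp and a digit, and they are 101 of 4705 units with a single gene name and of 6324 units in all. A unit is the annotated gene body, introns included and without its start, which the authors lengthened where the run-on reads went further 3′ than the annotation. Of the 101 genes, 75 carry a plain symbol and 26 a compound name, a symbol with _containing or _like added, such as ZNF709_containing_gene15731. The sources used here do not say what either ending means for these genes. Many of the symbols within compound names recur for several genes. Reads that aligned to more than a single place were not counted, so that genes with close copies can be undercounted, and how alike these copies are was not tested. No filter on low counts was added here. A minimum mean count of 50 left the calls between cold and warm as they were, so the deposited units seem to leave out genes with few reads. Other ZNF or ZFP genes may be absent for that reason. The lowest count of any of the 101 in a library was 28, for ZNF548_containing. A further 60 units in which a ZNF or ZFP gene overlaps a neighbour, among them the unit of Zfp36 with Med29, were not analysed here.

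A zinc finger is a short fold of protein held by a zinc ion, and genes named ZNF or ZFP share only that fold. Most encode C2H2 proteins, in which a row of fingers reads a DNA sequence, and many of these also carry a KRAB domain, which calls in the corepressor Trim28 and with it the histone methyltransferase Setdb1. The KRAB genes lie in clusters of copies that expanded separately in each mammalian lineage. The Zfp36 family is of another kind: its CCCH fingers bind AU-rich elements of messenger RNA and recruit the CCR4-NOT complex, which removes the poly(A) tail.

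The method was GRO-seq, a nuclear run-on in which RNA polymerases caught in the act of transcribing extend and label their transcripts, so that a read marks ongoing synthesis and says nothing of how much of a message has built up. Each of the 14 libraries came from the liver of a different laboratory-housed female carrying an implanted temperature recorder, with no allele or agent that differed between groups, and the labels give no age. There were 3 libraries of summer active animals (SA), which keep a high body temperature (Tb) before the hibernation season, 3 of interbout aroused hibernators (IBA), which are warm for a short time between torpor bouts, 3 of hibernators entering torpor (Ent), with Tb falling, 3 in early torpor (ET) and 2 in late torpor (LT), both with low Tb. SA and IBA together are called warm below and ET and LT together cold. The ET libraries are the only ones of their collection season, so that ET and its season cannot be told apart.

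Between 3713883 and 8884763 reads were counted per library. The 9 of 16 listed hepatocyte markers that have a unit of their own summed to 10722 to 23432 CPM (counts scaled to a common, TMM-normalized library size) in the warm libraries, 8055 to 9947 in Ent and 4109 to 7772 in the cold libraries. Of those 9, 5 fell in the cold and 1 rose, against 18.7% of all single-gene units lower and 18.3% higher. None of 15 listed leukocyte markers had a unit of its own, so that this share of the tissue could not be checked, and of the endothelial, stellate and cholangiocyte markers Kdr and Sox9 fell among 4 measured. The part of these differences in the zinc finger results was not tested. In whole tissue, fewer cells of a type and less transcription per cell cannot be told apart.

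Zinc finger genes moved in both directions between the warm and the cold livers. At an adjusted p of 0.001 in edgeR's quasi-likelihood test, 34 of the 101 differed between cold and warm, 33.7% against a background of 37% of all single-gene units, and 72 at an adjusted p of 0.05 (71.3%, background 65.1%). Of these, 19 were higher in the cold (18.8%, background 18.3%) and 15 were lower (14.9%, background 18.7%), shares near the background in both directions. At 0.05 the split was 35 higher (34.7%, background 30.1%) and 37 lower (36.6%, background 35%). Without regard to the test, the 5 cold libraries all lay above the 6 warm libraries in 24 genes (background 20.3%) and all below them in 16 genes (background 20.2%). The median log2 fold change, cold against warm, was -0.17 over the 101 genes, with a range from -2.82 to 2.12, and -0.07 over all single-gene units. The genes with plain symbols had a median of -0.25 and those with compound names 0.14. As a share of all counts in a library, the 101 genes together took between 0.672% and 0.843%.

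**Figure D1:**
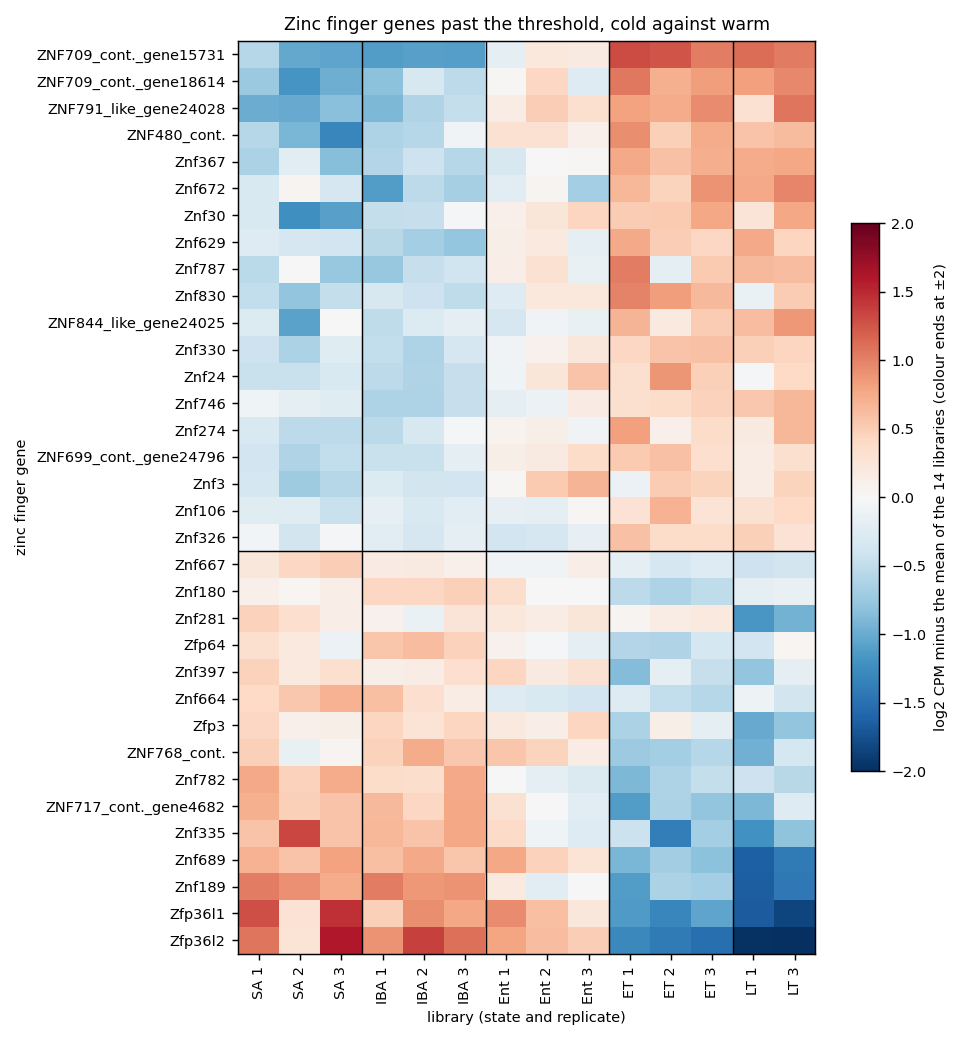
Log2 CPM of the 34 zinc finger genes past the threshold, cold against warm, in each of the 14 libraries (columns, in the order SA, IBA, Ent, ET, LT), as the difference from the gene's mean over all libraries. The 19 genes above the horizontal line are redder in ET and LT, the 15 below it are bluer there, and the Ent libraries are mostly pale.

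When the 5 states were tested together, 25 of the 101 genes differed at 0.001 (24.8%, background 26.4%) and 74 at 0.05 (73.3%, background 63.3%). The means of 13 of these followed a pattern high in ET and LT (52% of the 25, against 44.3% of all 1243 single-gene units called) and of 10 a pattern low in ET and LT (40%, against 39.8%), at a Pearson r of 0.8 or more with that pattern over the 5 state means. A single gene, Znf594, was highest in Ent (4%, against 0.161%, or 2 units), and Znf281 followed none of the 8 patterns. None was highest or lowest in SA or IBA alone.

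The largest falls in the cold were those of both CCCH genes in the set. Zfp36l2 was transcribed at 142, 82.2 and 207 CPM in SA, 127, 176 and 145 in IBA, 118, 104 and 95.9 in Ent, 27.8, 25.5 and 23.9 in ET and 17.2 and 16.3 in LT. Every cold library lay below every library of the other 3 states. Cold against warm this was 7.05-fold lower, a log2 fold change of -2.82 ± 0.21 (SE, edgeR adjusted p = 5e-07). The gene lies on chromosome 12 of the HiC_Itri_2 genome from 37189075 to 37195720, plus strand.

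Zfp36l1, which like Zfp36l2 directs AU-rich messages to decay, gave 576, 289 and 649 CPM in SA, 329, 454 and 406 in IBA, 458, 358 and 277 in Ent, 108, 95.8 and 114 in ET and 75.1 and 66.6 in LT. The warm and Ent libraries again did not overlap with the cold ones, while SA spread over more than the whole range of IBA. The log2 fold change was -2.37 ± 0.21 (adjusted p = 1.6e-06), or 5.17-fold lower, for a unit on chromosome 5 from 62141587 to 62150485, plus strand. Per kb of unit, a scale on which genes can be compared, Zfp36l1 had the highest mean level of the 101 genes over all libraries at 34.2 CPM per kb and Zfp36l2 the next at 14.1, against a median of 2.27. That order held in SA, IBA and Ent but not in the cold. In ET Zfp36l1 was still at rank 1 with 11.9 CPM per kb, while Zfp36l2 was at 3.88, rank 29. In LT Zfp36l1 was at 7.96 CPM per kb, rank 4, and Zfp36l2 at 2.53, rank 42.

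Both CCCH genes held most of their warm transcription in Ent and lost it between Ent and ET. The log2 step from Ent to ET was -2.04 ± 0.27 for Zfp36l2 (adjusted p = 0.00048) and -1.78 ± 0.27 for Zfp36l1 (adjusted p = 0.00093). From IBA to Ent the steps were -0.50 ± 0.25 (adjusted p = 0.19) and -0.12 ± 0.26 (adjusted p = 0.78), and from ET to LT -0.62 ± 0.30 (adjusted p = 0.61) and -0.58 ± 0.30 (adjusted p = 0.64), none of them past the threshold. LT against IBA, the log2 fold change of Zfp36l2 was -3.15 ± 0.33 (adjusted p = 2.1e-05).

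Among the C2H2 genes Znf189, a KRAB gene on chromosome 3 from 173017943 to 173033788, had the largest fall. It stood at 189, 175 and 155 CPM in SA, 189, 169 and 173 in IBA, 106, 79.8 and 92.6 in Ent, 42.6, 59.7 and 57.6 in ET and 29.6 and 34.5 in LT. No library of the warm states, of Ent, of ET or of LT overlapped with the next. Its log2 fold change, cold against warm, was -2.08 ± 0.12 (adjusted p = 1.9e-07). Its log2 steps were -0.93 from IBA to Ent (adjusted p = 0.0038), -0.80 from Ent to ET (adjusted p = 0.003) and -0.73 from ET to LT (adjusted p = 0.14), so that no single step passed 0.001 while LT against IBA did at -2.46 ± 0.19 (adjusted p = 6.8e-06).

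Znf689, another KRAB gene, kept its level through Ent. The libraries gave 60.3, 54.7 and 64.6 CPM in SA, 56.3, 62.3 and 54.3 in IBA, 63.2, 50.8 and 44.9 in Ent, 19.6, 22.8 and 21.1 in ET and 11.9 and 13.8 in LT. Ent overlapped with both warm states, and ET lay well below. The log2 difference was -1.83 ± 0.12 cold against warm (adjusted p = 3e-07) and -1.33 ± 0.16 from Ent to ET (adjusted p = 0.00032). The unit lies in 2 pieces on chromosome 9 between 124918733 and 124948384, minus strand.

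The other genes lower in the cold changed less, between 1.5-fold and 3.13-fold. Znf335, whose protein associates with histone H3 lysine methyltransferase complexes, had the lowest, median and highest values of 26.5, 26.7 and 45.1 CPM in SA and 26.5, 28.4 and 30.5 in IBA. It gave 23.2, 16.9 and 15 CPM in Ent, 13.3, 6.87 and 11.2 in ET and 7.71 and 10.3 in LT, a log2 fold change of -1.65 ± 0.22 (adjusted p = 3.4e-05). SA replicate 2 was the high library. ZNF717_containing_gene4682 (-1.29 ± 0.17), Znf782 (-1.15 ± 0.14), ZNF768_containing (-1.01 ± 0.15), Znf664 (-0.79 ± 0.12) and Znf397, a SCAN domain gene (-0.74 ± 0.14), also fell with no overlap between cold and warm libraries. Zfp3, Zfp64, Znf281, the KRAB gene Znf180 and Znf667 make up the 15, and in Zfp3, Zfp64 and Znf281 the cold and warm libraries overlapped.

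**Figure D2:**
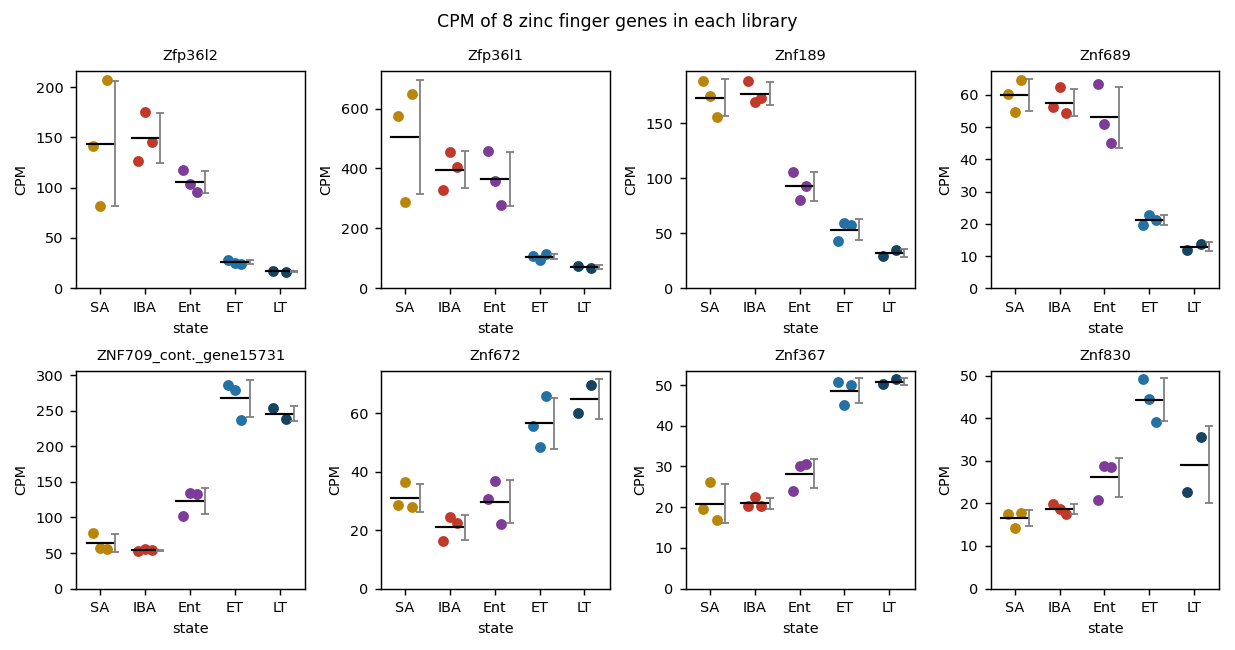
CPM of 8 zinc finger genes in each library (points) by state, each on its own linear axis from 0, with the state mean (black line) and SD (grey bar, n = 3 animals, 2 in LT). Zfp36l2, Zfp36l1 and Znf689 drop between Ent and ET, Znf189 has lower libraries at each stage from IBA on, and ZNF709_containing_gene15731, Znf672, Znf367 and Znf830 are higher in ET and LT than in SA and IBA.

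The largest rise was that of ZNF709_containing_gene15731, on chromosome 2 from 205156935 to 205204149, minus strand. Its libraries gave 78.8, 57.5 and 56.1 CPM in SA, 53.4, 55 and 54 in IBA, 102, 134 and 132 in Ent, 286, 279 and 238 in ET and 254 and 239 in LT. Ent lay apart from the warm and from the cold libraries. The gene was 4.36-fold higher in the cold, a log2 fold change of 2.12 ± 0.12 (adjusted p = 1.7e-07). It took the change in a pair of like steps, 1.18 ± 0.16 from IBA to Ent (adjusted p = 0.0024) and 1.12 ± 0.15 from Ent to ET (adjusted p = 0.00054), with -0.12 ± 0.17 from ET to LT (adjusted p = 0.94).

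The next rises were also those of genes with compound names built on symbols of KRAB genes. ZNF709_containing_gene18614, on the same chromosome from 208651026 to 208674346, went from a mean of 37.2 CPM ± 5.65 (SD, n = 3) in SA and 49.5 ± 8.64 in IBA to 76.6 ± 18.1 in Ent, 133 ± 16.1 in ET and, over 2 libraries, 134 ± 9.46 in LT. Its log2 fold change was 1.63 ± 0.14 (adjusted p = 1.3e-06). ZNF791_like_gene24028 followed at 1.58 ± 0.15 (adjusted p = 2.2e-06) and ZNF480_containing at 1.32 ± 0.16 (adjusted p = 1.3e-05). ZNF844_like_gene24025 (0.95 ± 0.17) and ZNF699_containing_gene24796 (0.78 ± 0.10) complete the 6 compound names among the 19 higher genes, against 2 such names among the 15 lower. Such a name was also carried by 18 of the 67 genes not past the threshold and by 26 of all 101. These shares were not compared by a test.

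The 13 plain symbols that rose did so by 1.53-fold to 2.39-fold. Znf367 gave 19.5, 26.1 and 16.8 CPM in SA, 20.2, 22.6 and 20.3 in IBA, 24, 30.1 and 30.5 in Ent, 50.8, 45.2 and 50 in ET and 50.2 and 51.4 in LT. The cold libraries lay within a narrow band above all others, at a log2 fold change of 1.25 ± 0.13 (adjusted p = 4.7e-06). Znf672 changed by as much, 1.25 ± 0.16 (adjusted p = 2.8e-05), from 31 CPM ± 4.86 (SD, n = 3) in SA, 21 ± 4.29 in IBA and 29.7 ± 7.43 in Ent to 56.6 ± 8.75 in ET and 64.8 ± 6.83 in LT (SD, n = 2).

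Other genes higher in the cold have single known roles. Znf830, whose protein is found with the spliceosome, rose by 1.03 ± 0.15 on the log2 scale (adjusted p = 7.6e-05), and Znf326, part of a complex that couples elongation by RNA polymerase II to splicing, by 0.61 ± 0.09 (adjusted p = 0.00011). Mean levels of Znf830 were 44.3 CPM in ET but 29.1 in LT, against 26.1 in Ent. LT against IBA it did not pass the threshold (0.65 ± 0.23, adjusted p = 0.031). Znf330 encodes a nucleolar protein and rose by 0.93 ± 0.11 (adjusted p = 1e-05). The KRAB gene Znf746, a repressor of Ppargc1a, rose by 0.86 ± 0.09 (adjusted p = 4.7e-06), and Znf274, which brings Setdb1 to zinc finger gene clusters, by 0.81 ± 0.15 (adjusted p = 0.00048). Znf24, Znf30, Znf106, Znf3, Znf629 and Znf787 are the remaining risers, and in Znf787 the cold and warm libraries overlapped, with ET replicate 2 at 85.6 CPM beside SA replicate 2 at 96.8. Znf787 also gives its name to a merged unit 11375 nt upstream, and how reads were divided between them was not tested.

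By the median, the rises had gone further than the falls when the animals were entering torpor. For each of the 34 genes the share of the warm-to-cold change already present in Ent was taken from the state means of log2 CPM, where 0 is the warm level and 100% the cold level. Its median was 51.8% for the 19 higher genes and 23.6% for the 15 lower ones, and 12 of the 19 but 3 of the 15 were past 50%, ZNF709_containing_gene18614 by a trace. Over all single-gene units past the same threshold the medians were 41.3% for the 859 higher and 42.4% for the 881 lower units, with 307 and 341 units past 50%. The Ent libraries had no part in the choice of these genes beyond the shared estimate of the spread. The quartiles were 35.8% and 69.9% for the 19 higher genes and 6.55% and 44.7% for the 15 lower ones. Of the Ent libraries, 2 came from the season of both LT libraries and 1 from that of IBA. The place of Ent between warm and cold is therefore mixed with season. The zinc finger genes as a set, called or not, lay above the midpoint of their warm and cold levels in Ent, by a median log2 difference of 0.15. For all single-gene units that median was -0.003. Such an upward offset raises the share of a rise and lowers that of a fall. Its part in the difference between rises and falls was not tested. A test of the zinc finger genes against the other units was not made.

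**Figure D3:**
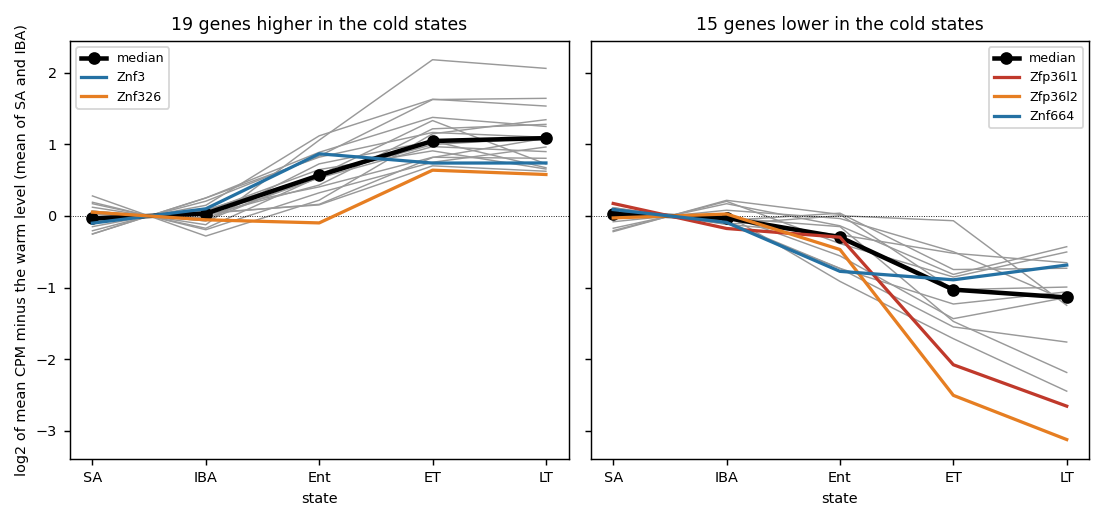
Mean CPM of each gene in each state as log2 difference from its warm level (mean of SA and IBA), for the 19 higher genes on the left and the 15 lower genes on the right (grey or coloured lines; black, the median over genes). The median of the higher genes is midway in Ent, that of the lower genes is nearer the warm than the cold level in Ent. Both medians change little between ET and LT, while single lower genes fall further.

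Some risers had arrived in Ent. Znf3, a KRAB gene, stood at 116 CPM ± 26.3 (SD, n = 3) in Ent against 68.1 ± 2.82 in IBA and 106 in ET and in LT, which puts its share at 116%. Znf24 was at 83.4%, ZNF699_containing_gene24796 at 82.7% and Znf30 at 73.6%. Others waited: Znf326 gave 206, 166 and 211 CPM in SA, 186, 169 and 187 in IBA, 164, 169 and 192 in Ent, 322, 277 and 278 in ET and 298 and 262 in LT. The Ent libraries overlapped with both warm states (share -15.6%), and the step from Ent to ET was 0.74 ± 0.13 (adjusted p = 0.0016). Znf672 at 16.3% and ZNF844_like_gene24025 at 19.9% were also late.

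Among the falls Znf664 was the early one. Its CPM went from 54.8, 46 and 40.1 in IBA to 30.5, 29.3 and 27.9 in Ent, 30.5, 25.7 and 24.6 in ET and 33.9 and 28.3 in LT. The Ent libraries lay within the range of the cold ones (share 97.5%). Znf782 (63.9%) and Zfp64 (56.4%) were the other falls past 50%. Znf689 (8.81%), Zfp36l1 (12.0%), Zfp36l2 (15.2%), Zfp3 (4.29%), ZNF768_containing (-2.66%), Znf397 (-5.20%) and Znf281 (-1.63%) had made little or none of their fall in Ent.

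Step by step, few genes passed the threshold. From IBA to Ent no gene passed 0.001 (background 0.0425%), while 36 reached an unadjusted p of 0.05 (35.6%, background 33.4%), DESeq2 called 6 at 0.001, and 15 had an adjusted p at or under 0.05 (14.9%, background 16.7%), 10 of them upward (9.9%, background 8.57%) and 5 downward (4.95%, background 8.12%). Of those 15, ZNF709_containing_gene15731 and Znf189 had the smallest p-values, and Znf608 had the largest drop, -1.45 ± 0.40 (adjusted p = 0.029), from 61.4, 30.3 and 35.8 CPM in IBA to 13.7, 13.2 and 19.4 in Ent. From Ent to ET 4 genes passed 0.001 (3.96%, background 2.3%), ZNF709_containing_gene15731 upward (0.99%, background 1.13%) and Zfp36l2, Zfp36l1 and Znf689 downward (2.97%, background 1.17%). At an adjusted p of 0.05 that step held 28 genes (27.7%, background 29.2%), 12 up (11.9%, background 15.4%) and 16 down (15.8%, background 13.8%). All 4 rest on the full set of libraries: without any 1 of the 3 ET libraries, or without Ent replicate 1 or 2, no zinc finger gene passed 0.001 in this step.

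LT against IBA, the latest torpid state against the warm hibernators, gave 15 genes at 0.001 (14.9%, background 17.6%) and 54 at 0.05 (53.5%, background 50.7%). The 8 risers (7.92%, background 9.46%) were ZNF709_containing_gene15731, Znf672, ZNF709_containing_gene18614, ZNF791_like_gene24028, Znf367, Znf629, Znf746 and Znf330, from 2.18 ± 0.17 down to 0.93 ± 0.16 on the log2 scale. The 7 that fell (6.93%, background 8.18%) were Zfp36l2, Zfp36l1, Znf189, Znf689, Zfp3, ZNF768_containing and Znf281, from -3.15 ± 0.33 to -1.13 ± 0.17. Without IBA replicate 1 or 3 the count was 7, and without LT replicate 1 or 3 it was 6. All 3 IBA libraries came from 1 collection season and both LT libraries from another, and with season as a covariate, which is estimated through SA and Ent, the count was 3.

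Neither between the warm states nor between the cold states did a zinc finger gene pass 0.001 in edgeR. For SA to IBA the background was 0.0213% at 0.001, 23 zinc finger genes reached an unadjusted p of 0.05 (22.8%, background 23.4%), 2 an adjusted p of 0.05 (1.98%, background 5.57%), and DESeq2 also called none at 0.001. The smallest p-values belonged to Znf143, whose protein binds the promoters of many housekeeping genes, and to Znf142. Znf143 gave 50.4, 58.9 and 36.6 CPM in SA and 85.5, 84.4 and 81.1 in IBA, with no overlap and a log2 difference of 0.79 ± 0.20 (adjusted p = 0.037). It stayed at 103 CPM ± 17.2 in Ent, 103 ± 10.3 in ET and 96.5 ± 25.6 in LT (SD over 3, 3 and 2 libraries). Znf142 went the other way, from 75, 87.7 and 77.4 CPM in SA to 62.5, 54.8 and 54 in IBA, by -0.49 ± 0.13 (adjusted p = 0.045).

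For ET to LT the background was 0% at 0.001, 15 zinc finger genes reached an unadjusted p of 0.05 (14.9%, background 9.27%), 1 an adjusted p of 0.05 (0.99%, background 0.34%), and DESeq2 called 1 at 0.001. The smallest p was that of Znf281, a repressor that binds GC-rich promoter sequence, on chromosome 9 from 74648342 to 74653720. Its libraries gave 49.9, 45.7 and 39.7 CPM in SA, 38.6, 33.2 and 43.4 in IBA, 41.8, 40.4 and 43 in Ent, 37.5, 40.1 and 41.7 in ET and 16.2 and 18.9 in LT. ET was level with the warm states and both LT libraries lay below every other library, a log2 step of -1.18 ± 0.17 (adjusted p = 0.021). Znf189 was next, with the step given above.

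Ent was not always between warm and cold. Against the midpoint of the warm and cold levels, no gene passed 0.001 (background 0.106%), 28 reached an unadjusted p of 0.05 (27.7%, background 22.5%), DESeq2 called 5 at 0.001, and 10 passed an adjusted p of 0.05 (9.9%, background 6.04%), 9 above the midpoint (background 4.36%) and 1, Znf326, below it (background 1.68%). Counted without a test, 72 of the 101 genes lay above their midpoint in Ent (71.3%), against 49.5% of all single-gene units.

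Znf594, a C2H2 gene on chromosome 7 from 53271001 to 53288147, had the largest excess in Ent. It stood at 22.4, 14 and 11.3 CPM in SA, 26.7, 37 and 32.4 in IBA, 39.7, 53.1 and 57.8 in Ent, 11.9, 16.7 and 19.2 in ET and 13.6 and 19.7 in LT. The Ent libraries lay above all others, 1.39 ± 0.20 log2 units over the midpoint (adjusted p = 0.0031), and the step from Ent to ET was -1.66 ± 0.28 (adjusted p = 0.0014). ZNF548_containing (1.13 ± 0.23), ZNF284_containing (0.72 ± 0.18), Znf45 (0.70 ± 0.17), ZNF266_containing (0.48 ± 0.10) and Znf23 (0.43 ± 0.11) had Ent means above those of the other 4 states too. The other 3 above the midpoint were Znf689, Zfp36l1 and Zfp36l2, in which Ent was close to the warm level.

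Of the 101 genes, 46 lay within 1 Mb of another, in 16 neighbourhoods, and genes of a neighbourhood did not always share a direction. On chromosome 9, between 124771496 and 125081094, Znf689 (-1.83) and ZNF768_containing (-1.01) fell and Znf629 rose (1.08 ± 0.11), with Znf771 at -0.17 ± 0.15 (adjusted p = 0.32). On chromosome 13 Znf367 rose (1.25) and Znf782 fell (-1.15) within a stretch from 6104846 to 6420195, and Znf24 rose (0.86) beside Znf397 (-0.74) between 50417316 and 50484952. Genes with the same symbol in their names also differed: ZNF709_containing_gene15731 rose by 2.12, while ZNF709_containing_gene15733, next to it on the opposite strand, stood at -0.21 ± 0.15 (adjusted p = 0.22). Chromosome 16 held 21 of the 101 genes, of which 4 rose and 2 fell. On it 5 genes between 15917730 and 16927321 all had values below 0, from -0.62 to -0.27, of which Znf180 alone passed the threshold.

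**Figure D4:**
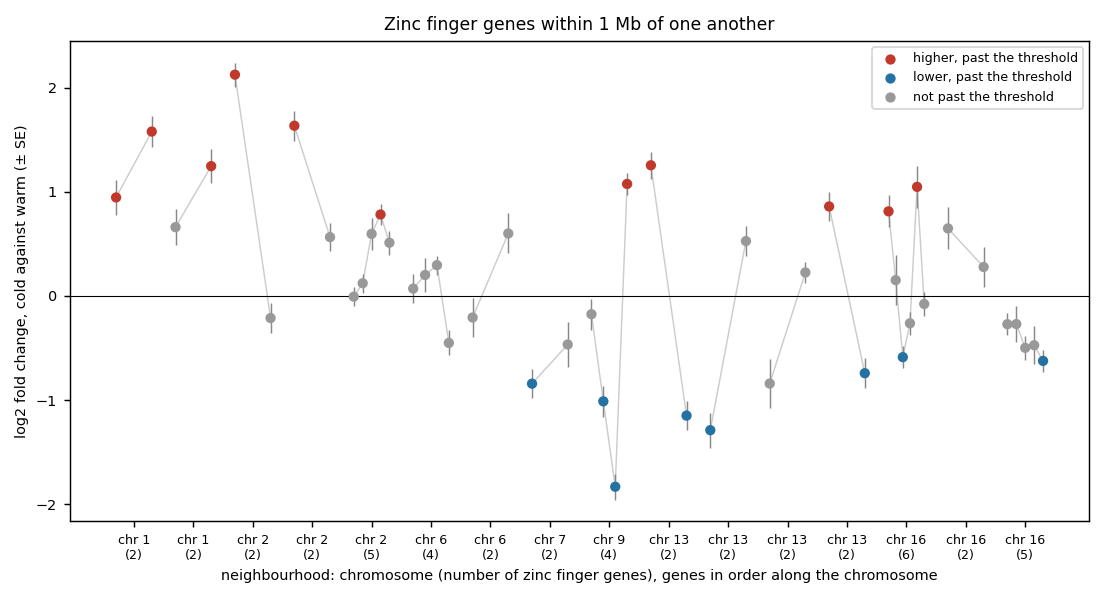
Log2 fold change, cold against warm (± SE of the fit), for the 46 zinc finger genes that lie within 1 Mb of another, grouped by neighbourhood and joined in order along the chromosome. Neighbours of opposite colour stand side by side on chromosomes 9 and 13, and on chromosome 16 genes not past the threshold lie between them.

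Transcription read from a unit that ends close upstream on the same strand could enter these counts. Such a unit, within 20 kb, preceded 2 of the 19 higher genes, 1 of the 15 lower and 10 of the other 67. For Zfp36l2 it is Thada, 4775 nt upstream, with a log2 fold change of 0.03. The higher and lower genes had units of similar length, with medians of 17126 and 18356 nt, against 21499 nt for all 101 and 36217 nt for all single-gene units.

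At the other end of the range, Znf445, a KRAB gene that protects imprinted regions, had means of 59.5 ± 24 CPM in SA, 51.2 ± 4.05 in IBA, 52.8 ± 17.2 in Ent, 47.3 ± 8.8 in ET and 52.1 ± 3.49 in LT (SD over 2 libraries, 3 in the other states), at -0.15 ± 0.22 cold against warm (adjusted p = 0.57). ZNF724_like_gene15084 (-0.21 ± 0.19) and Znf865 (-0.08 ± 0.12) also had some of the largest p-values over the 5 states, adjusted 0.69 and 0.58. The lowest levels per kb were those of Znf608 (0.211 CPM per kb), Znf516 (0.283) and Znf346 (0.375), and Znf444 came after both CCCH genes with 10.7 at the top.

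Genes that act with KRAB proteins or on messenger RNA decay were read from lists. Of 30 listed genes of the KRAB corepressor machinery 15 had a unit, and 3 rose in the cold while 3 fell, with a median log2 fold change of 0.26, against 18.3% of all single-gene units higher and 18.7% lower. The methyltransferase Setdb1 fell from mean levels of 43.9 CPM in SA and 33 in IBA to 20.7 in Ent, 8.24 in ET and 7.23 in LT, by -2.30 ± 0.20 (adjusted p = 1.4e-06), whereas Trim28 stood at -0.13 ± 0.19 (adjusted p = 0.55). Morc2 (-1.12 ± 0.15) and Fam208a (-1.003 ± 0.129), which silence repeats together with Setdb1, also fell. Mphosph8 (0.42 ± 0.09, adjusted p = 0.0015) and Pphln1 (0.40 ± 0.09, adjusted p = 0.0013), on the same list, went the other way without passing the threshold. The histone-binding subunits RBBP7 (1.39 ± 0.11) and Rbbp4 (1.14 ± 0.09) rose. The heterochromatin protein gene Cbx3 also passed (0.96 ± 0.16), but it stood at 63.8 CPM in ET and at 30.6 in LT, against 31.9 in Ent, and LT against IBA it did not pass (0.55, adjusted p = 0.066).

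Of 23 listed genes of messenger RNA decay and of other proteins that bind AU-rich elements 12 had a unit, of which 5 rose and none fell (background 18.3% and 18.7%), with a median of 0.43 beside -0.07 over all single-gene units. Cnot8 was the lowest at -0.30 ± 0.12 (adjusted p = 0.039). Cnot7, a deadenylase of the CCR4-NOT complex, rose by 1.37 ± 0.10, and was the only riser among the deadenylation and decapping genes. The other 4 risers were genes of proteins that bind AU-rich elements themselves, of which Elavl1 is known to stabilise its messages. Khsrp, Hnrnpd and Elavl1 rose by 1.56 ± 0.20, 1.35 ± 0.10 and 0.73 ± 0.10, and Tial1 by 0.53 ± 0.09. Tial1 stood at 111 CPM in ET but at 89.6 in LT, against 88.2 in Ent, and LT against IBA it did not pass (0.30, adjusted p = 0.08). The summed CPM of the 12 was 1367 to 1481 in the warm libraries, 1481 to 1638 in Ent and 1937 to 2148 in the cold libraries. Among 36 units of other C2H2 families by the start of their name, 9 rose and 8 fell, with a median of -0.06, beside the same background (the names include Zbtb8os, which is named for a neighbour and is no zinc finger gene). Egr1 had the largest fall of these at -4.39 ± 0.69, followed by Zscan2 at -3.66 ± 0.28, and Zbtb43 the largest rise at 1.69 ± 0.10.

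Few of the 34 calls passed 0.001 when season was taken into account. SA replicate 1, Ent replicates 1 and 2 and both LT libraries share a season, and within it LT differed from SA replicate 1 by a median of 0.84 on the log2 scale over the 19 higher genes and -1.26 over the 15 lower ones. These libraries took part in the choice of the 34 genes, which fixes the direction for the genes whose cold and warm libraries do not overlap, and 1 SA library allows no test. With season as a covariate and LT alone as the cold state, all 34 kept their sign. ZNF709_containing_gene15731, Zfp36l2, Zfp36l1, Znf189 and Znf689 still passed 0.001, and 19 of the 19 and 12 of the 15 passed 0.05. Over all 4705 single-gene units the same fit called 130 higher and 164 lower at 0.001, beside 859 and 881 in the main fit. Without ET and without the covariate, 11 of the 19 and 8 of the 15 passed 0.001, and over all single-gene units 534 were higher and 403 lower. Scaling to the uniquely mapped reads in place of TMM moves the median of all single-gene units by 0.23. With it, 32 genes were higher and 9 lower in the cold (78.0% of calls higher, against 55.9%), and all 34 kept their sign. All single-gene units shifted the same way, to 1203 higher and 603 lower (66.6% of calls higher, against 49.4%).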

How the data were processed

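The authors trimmed the GRO-seq reads, aligned them to the HiC_Itri_2 genome with BWA, extended annotated gene bodies where fstitch called transcription further 3′, left out the first 500 nt after the start site, merged overlapping genes and counted uniquely aligned reads with featureCounts; the strand setting is not given in the sources used here. The deposited values are raw counts per unit, not normalized, in 14 columns, and the file also gives each unit's position and length. An LT library that the authors removed has no column and was not used here. Replicates are separate animals. Counts were TMM-normalized and fitted with edgeR 4.0.16 (R 4.3.3) as a quasi-likelihood model of the 5 states over all 6324 units. No filter on low counts was added to the deposited units. p-values were adjusted by the Benjamini-Hochberg method over all units, and a call needs an adjusted p at or under 0.001. Background shares are over the 4705 single-gene units. SE is the log2 fold change over the root of its F. CPM uses TMM-scaled totals, with a prior count of 2 for log2 values.

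Named are the 10 largest rises and 10 largest falls, cold against warm, past the threshold without overlap of libraries, up to 3 rises and 3 falls per step (or the 2 smallest p-values), the Zfp36 family, the 3 highest and 3 lowest levels per kb, the 3 smallest p-values for Ent off the midpoint and the 3 largest over the 5 states among genes at or over the median count; other genes named were chosen after their values were seen. The genes, lists and tests were chosen with earlier results of these data known. Of the 101 names, 72 match a symbol in RefSeq's table for mIctTri1.hap1. Collection season and uniquely mapped reads come from the study's sample list. Alternatives were DESeq2 1.42.0, other normalizations, a mean count of at least 50, single-gene units alone, an adjusted p of 0.05, season, a replicate block and each library left out, and, added after seeing the data, ET left out. The steps were tested on simulated data. Python 3.11.15 with numpy 2.4.6, pandas 2.3.3 and matplotlib 3.10.9 was used. The value of a hepatocyte marker is not reported here.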

Additional observations from a re-analysis of the deposited data

How the results depend on the processing

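RLE size factors, upper-quartile normalization and a fit of single-gene units alone left every count within 1.5 times its value and all 34 directions as they were. A minimum mean count of 50 gave the same counts and medians as the main fit. It seems to have removed no unit, so it could not test the effect of low counts. DESeq2 called more genes: 54 among the 5 states, 31 higher and 20 lower in the cold, 6 at IBA to Ent, 16 at Ent to ET, 1 at ET to LT, 26 for LT against IBA and 5 off the midpoint. Over all single-gene units it called 1121 higher and 1178 lower in the cold, beside 859 and 881 in edgeR. At an adjusted p of 0.05 the counts were 74 among the states, 35 higher and 37 lower in the cold, 2 at SA to IBA, 15 at IBA to Ent, 28 at Ent to ET, 1 at ET to LT, 54 for LT against IBA and 10 off the midpoint. With uniquely mapped reads as library size, 32 genes were higher and 9 lower (1203 and 603 over all single-gene units). The median of the 101 genes turned from -0.17 to 0.0571, and that of all single-gene units from -0.07 to 0.16. ZNF724_like_gene15084 turned to 0.0172, Znf445 to 0.0753 and Znf865 to 0.15. Znf445 ran from -0.29 without SA replicate 3 to 0.00973 without SA replicate 2. With ET left out, 11 were higher and 9 lower (534 and 403 over all single-gene units). With season as a covariate, 1 was higher and 4 lower (130 and 164 over all single-gene units), and 3 were called from IBA to LT. Neither of these can give the test of 5 states or a step with ET. The cause of these shifts was not tested, beyond the fewer libraries where some are left out.

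Replicate numbers name different animals, and deviations of same-numbered libraries correlated with both signs (SA and IBA replicate 2, r = -0.16; SA and LT replicate 1, r = 0.18), so that the numbers do not pair them. With the replicate block, 15 genes differed among the 5 states and 0 from Ent to ET, and no other count moved by over 1.5 times.

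With each library left out in turn, 16 to 24 genes differed among the states (16 without IBA replicate 3), 13 to 21 were higher and 9 to 16 lower in the cold (9 without LT replicate 1), 0 to 5 were called from Ent to ET, 6 to 18 from IBA to LT, and 0 in the other steps and off the midpoint. The median of the 101 genes ran from -0.18 to -0.10. Where 1 LT library remains, it is assumed to vary like the other groups. Groups of 2 or 3 libraries limit every step between single states.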
